A study of Homo sapiens with 2 samples.

Results

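The heat shock protein and DnaJ chaperones were followed in GFP-SAS cells after inhibition of miR-361-3p. The genes were chosen by name: every probe set whose single annotated symbol began with HSPA, HSPB, HSPD1, HSPE1, HSPH1, HSP90, DNAJA, DNAJB or DNAJC was taken, and 10 pseudogenes with 13 probe sets were left out. This gave 73 genes on 212 probe sets, of 18239 genes on 45253 probe sets with a single symbol. For 62 of the 73 genes at least 1 probe set reached the median of an array (163 probe sets), as did 24127 probe sets of 11272 genes in all. The other 11 genes had levels between 2.48 and 3.83 on the log2 scale and were not counted as measured.

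GFP-SAS is a line of the established tongue squamous carcinoma line SAS that carries green fluorescent protein. The cells were given an LNA/DNA antisense oligonucleotide at 25 nM, a short strand in which locked nucleotides strengthen pairing. It was directed against miR-361-3p in one group and was a non-target oligonucleotide in the other, and both groups were treated for 24 h. From each group 10 ng of total RNA, extracted with ISOGEN, was labelled with biotin and hybridised to 1 array. With 1 array per group no replicate error exists, so no p-value is given, and a difference between the arrays cannot be told apart from a difference between cultures. In bulk RNA, fewer cells with a transcript and less transcript per cell cannot be told apart either. The microRNA that the oligonucleotide is directed against is shown with its seed, bases 2 to 8, in capitals, as RefSeq gives it on GRCh38.p14 (chrX:85903641-85903663, minus strand). Its own level was not analysed here.
miR-361-3p: uCCCCCAGgugugauucugauuu

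Chaperones of the HSP70 class bind exposed hydrophobic stretches of unfolded proteins and release them in a cycle driven by ATP. J-proteins, the DNAJ genes, deliver substrates and start ATP hydrolysis through their J domain, and nucleotide exchange factors such as the HSP110 proteins end the cycle. HSP90 proteins act later in folding, small HSPs hold unfolded proteins, and the chaperonin of HSPD1 and HSPE1 encloses proteins in mitochondria. Cytosolic stress is known to raise many of these genes through HSF1 at heat shock elements, while stress in the endoplasmic reticulum (ER) raises the ER members through another response.

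All values are log2 RMA values, and where a pair of levels is given the anti-miR array comes first. A gene's value is the mean over its retained probe sets, a difference is the anti-miR array minus the control array, and ± is the SD over the gene's probe sets. Such probe sets share 1 RNA sample, can share probes and can lie at different levels. This SD is therefore a spread over probe sets within the arrays and no error of the difference. Pooled over 6263 genes it was 0.29. A gene is counted as higher or lower when its values differed by at least 1.5-fold, which is 0.58 on the log2 scale. The median difference of all 11272 genes was 0.13, so a member near 0.13 stood where the middle gene stood. The poly-A control transcripts differed by 0.32 ± 0.19 (12 probe sets), higher after anti-miR treatment, and the hybridization controls differed by 0.09 ± 0.10 (9 probe sets). Of the 23 nonspecific control probe sets the brightest read 7.16 (anti-miR) and 6.87 (control). A gene value below these levels was not shown here to exceed background, and its fold is no exact size. Of 11 listed epithelial markers 7 were measured, among them KRT18 (11.59 and 11.79) and EPCAM (11.14 and 11.28). DSG3 read 5.52 and 5.40, within the nonspecific range, and the others of the 7 lay above it. None of the 7 passed 1.5-fold, and their median difference was -0.14. KRT14 was not measured, and KRT6A, KRT17 and TP63 were not analysed here. Of 14 listed leukocyte, fibroblast and endothelial markers only PECAM1 and VWF were measured, both within the nonspecific range.

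Of the 62 measured chaperones, 7 passed 1.5-fold upwards and 11 downwards. The shares were 11.3% and 17.7%, beside 8.23% and 14.2% of all genes. The median member differed by 0.13, with quartiles of -0.27 and 0.33, which was the median of all genes. At 2-fold no member was higher and 3 were lower (DNAJC21, DNAJC6 and DNAJC13), beside 1.23% and 6.98% of all genes. As a set the chaperones therefore stood close to the background, and what follows describes how they spread around it. With differences centred on the median of all genes or on a lowess trend with level, 4 members were higher and 12 lower. The higher share of the members past 1.5-fold was then 25% in place of 38.9%. It was 60% with a filter at the 75th percentile of the arrays and 50% with the highest probe set per gene. For 41 members 2 or more probe sets were retained. They had the same sign throughout in 31 members, among them all 13 that passed 1.5-fold. Those 13 were picked by the mean of these same probe sets, so their agreement in sign is no separate support. A probe set could also be retained through 1 array alone. For DNAJC3, DNAJC11, DNAJC21 and HSPA4L at least 1 was retained through the control array, and for DNAJB2 1 through the anti-miR array. The other 21 members rested on 1 probe set.

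**Figure D1:**
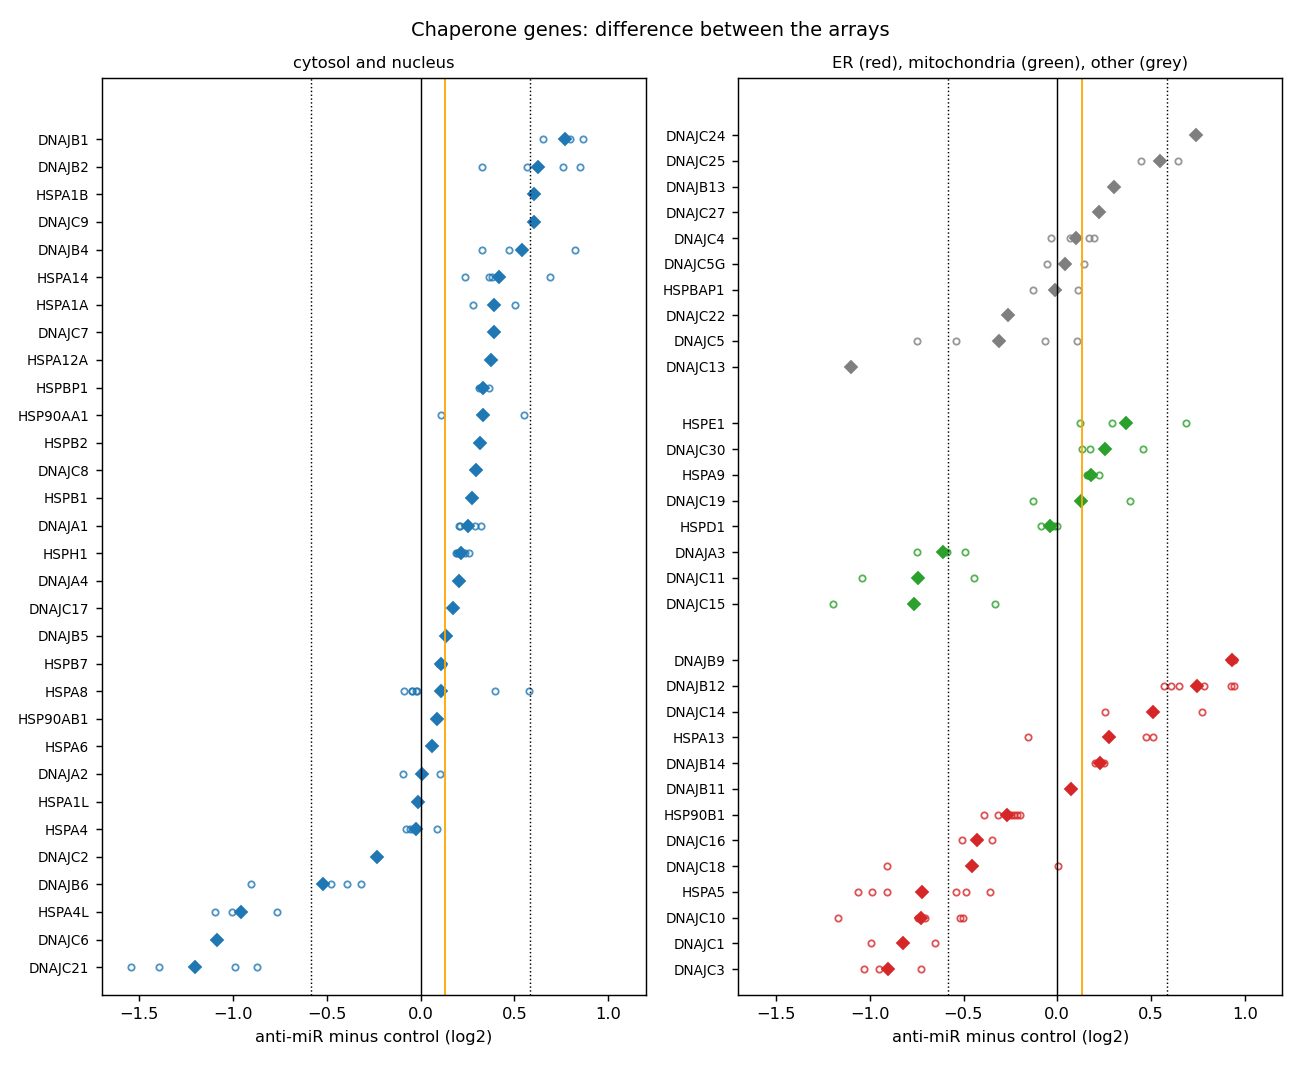
Difference between the arrays (log2, anti-miR minus control) for the 62 measured chaperones, one row per gene, by compartment. Diamonds are gene values, open circles the retained probe sets, dotted lines 1.5-fold and the orange line the median of all genes (0.13). Cytosolic members lie mostly right of 0, and the ER members run from -0.90 for DNAJC3 to 0.93 for DNAJB9.

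By compartment, 24 of 31 measured members of the cytosol and nucleus had a difference above 0, with 4 higher, 3 lower and a median of 0.21. Of all genes 62.3% had a difference above 0, and 19 of the 31 lay above the median of all genes. After centring on that median 1 of the 31 was higher and 4 were lower. The 13 ER members had 2 higher, 4 lower and a median of -0.27. The 8 mitochondrial members had none higher, 3 lower and a median of 0.05, and the 10 members of other or unassigned sites had 1 higher, 1 lower and a median of 0.07. Relative to the median of all genes these medians were 0.08, -0.40, -0.08 and -0.06, so the last 2 changed sign. The ER median rested on its dim members. Among the 5 ER members with a mean level above the nonspecific range it was 0.07, and with a filter at the 75th percentile of the arrays it was also 0.07.

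Over the families, the medians of the DNAJB and DNAJC genes lay on opposite sides of 0. Of 10 measured DNAJB genes 4 were higher (40%), none lower and 9 above 0, with a median of 0.42. Of all genes 8.23% were higher, 14.2% lower and 62.3% above 0. Of the 10 DNAJB genes, 8 lay above the median of all genes, and after centring on it 3 were higher and 1 lower. Of 25 measured DNAJC genes 2 were higher (8%) and 8 lower (32%), with a median of -0.23. Except for DNAJB1 and DNAJC15, these higher DNAJB and lower DNAJC genes had values within the nonspecific range on at least 1 array. The 4 DNAJA genes held 1 lower and had a median of 0.11. Among the HSP70 genes 1 of 10 was higher and 1 lower (median 0.23). Of 3 HSP110 genes 1 was lower (median -0.02), and none of the 3 HSP90 genes, 3 small HSPs or 2 chaperonin genes passed 1.5-fold, with medians of 0.09, 0.27 and 0.16. Relative to the median of all genes the DNAJB and DNAJC medians were 0.29 and -0.36, while those of DNAJA and HSP90 changed sign (-0.03 and -0.04). HSPBP1, an exchange factor of HSP70, and HSPBAP1 were taken by the name rule although they are not small HSPs.

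The stress-inducible HSP70 genes of the cytosol, HSPA1A and HSPA1B, are shown first because their proteins are the classical read-out of HSF1. HSPA1A read 11.76 and 12.49 on its 2 probe sets in anti-miR cells, against 11.26 and 12.21 in control cells, a difference of 0.39 ± 0.16. HSPA1B read 10.56 and 9.95 on its 1 probe set, a difference of 0.60 or 1.52-fold. Both differences were positive, and that of HSPA1B was just past 1.5-fold, which it no longer was after centring. These genes are near-identical copies that lie close together on chromosome 6, and cross-hybridisation between their probe sets was not tested. No probe set of either gene is a plain _at probe set (all carry _x_at), so their differences are not shown to be separate results. Their promoters hold the same head-to-head pair of heat shock element units, GAANNTTC, in capitals. The stretches are RefSeq sequence of GRCh38.p14 on the plus strand, at chr6:31815429-31815452 for HSPA1A and chr6:31827625-31827648 for HSPA1B, 98 and 97 bases before the start site.
HSPA1A: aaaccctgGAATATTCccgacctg
HSPA1B: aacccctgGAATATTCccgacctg

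DNAJB1, the stress-inducible HSP40 that works with HSP70, had the largest positive difference of the cytosolic members. Its 3 probe sets read 8.91, 9.76 and 8.50 in anti-miR cells, against 8.04, 8.97 and 7.85 in control cells, a difference of 0.77 ± 0.11 or 1.71-fold. All 3 were higher by at least 0.65 and lay above the nonspecific range. Its start site on chr19 is preceded, 39 bases upstream on the minus strand (chr19:14518429-14518452), by the same kind of pair, in capitals.
DNAJB1: gggctctgGAAGCTTCcgccggac
DNAJB4, a close relative, read 6.94 and 6.40 (0.54 ± 0.25, 3 probe sets), and DNAJB5, another, read 5.06 and 4.92 on 1 dim probe set. DNAJB2, a J-protein with ubiquitin-interacting motifs, read 5.99 and 5.36 (0.63 ± 0.23, 4 probe sets), within the nonspecific range on both arrays. DNAJB6, known for holding back protein aggregation, went the other way: 7.65 and 8.17, a difference of -0.52 ± 0.26 with all 4 probe sets lower.

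Other genes that heat shock is known to raise differed little. HSPH1, the HSP110 exchange factor HSP105, read 11.24 and 11.03 over 8 probe sets that differed by 0.19 to 0.26. HSP90AA1, the inducible HSP90, read 12.61 and 12.50 on one probe set and 10.49 and 9.94 on the other, so its mean difference of 0.33 carried an SD of 0.31. HSP90AB1, the constitutive HSP90, read 11.85 and 11.76. DNAJA1, a J-protein of the cytosol, read 10.99 and 10.73 (0.25 ± 0.05, 5 probe sets), and HSPB1, the small HSP known as HSP27, read 10.83 and 10.55 on 1 probe set. HSPA6, an HSP70 that is nearly silent without stress, read 4.66 and 4.59, within the nonspecific range. None of these passed 1.5-fold.

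HSPA8, the constitutive HSC70, was an example of probe sets that differ by level. Its 5 probe sets above the nonspecific range read 10.92 to 12.94 on the anti-miR array and differed from the control array by -0.09 to -0.02. Its 2 probe sets within that range differed by 0.40 and 0.58, which alone moved the gene's mean difference to 0.11 ± 0.27. HSPA14, a ribosome-associated relative, differed by 0.42 ± 0.19, with all 4 probe sets higher. HSPA4, an HSP110 protein, read 8.70 and 8.72, while its relative HSPA4L read 4.50 and 5.46 (-0.96 ± 0.17), with all 3 probe sets lower and all within the nonspecific range. DNAJA2 differed by 0.01.

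**Figure D2:**
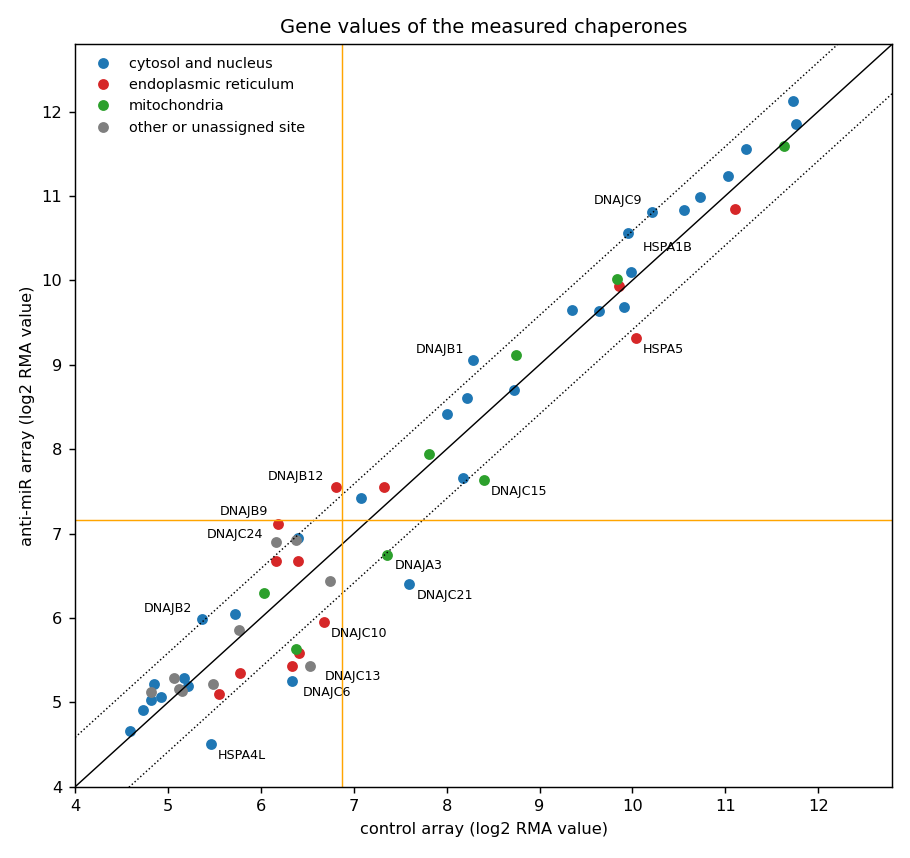
Gene values (log2 RMA) of the 62 measured chaperones on the control array (x axis) and the anti-miR array (y axis), coloured by compartment. The solid line marks equal values, dotted lines 1.5-fold and orange lines the highest nonspecific control on each array (6.87 and 7.16). Most members past 1.5-fold are named, and many of the lower ones sit left of the vertical or below the horizontal orange line.

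Among the nuclear and ribosomal J-proteins, DNAJC21, which acts in ribosome maturation, had the most negative difference of all members. Its 4 probe sets read 7.87, 4.88, 4.50 and 8.34 in anti-miR cells, against 8.74, 6.42, 5.90 and 9.33 in control cells, a difference of -1.20 ± 0.32 or 2.30-fold lower. All 4 were lower, including both that lay above the nonspecific range on both arrays. DNAJC9, a histone chaperone, read 10.81 and 10.21 on 1 retained probe set, a difference of 0.60. A probe set that the annotation gives to DNAJC9 and MRPS16 read 9.16 and 8.63, and with it DNAJC9 fell short of 1.5-fold. DNAJC2, a J-protein at the ribosome, differed by -0.23 and DNAJC8, of the spliceosome, by 0.30. DNAJC6, the auxilin that uncoats clathrin vesicles, read 5.25 and 6.33 on 1 dim probe set, a difference of -1.08, and its 2 dimmer probe sets brought it to -0.50 without a filter.

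In the ER, BiP and its co-chaperones did not differ in one direction. HSPA5 encodes BiP, the HSP70 of the ER lumen. Its 6 probe sets read 10.79, 6.92, 9.40, 8.80, 8.89 and 11.09 in anti-miR cells, against 11.33, 7.28, 10.30, 9.79, 9.95 and 11.58 in control cells. The mean difference was -0.72 ± 0.30, or 1.65-fold lower. All 6 were lower, by 0.36 to 1.06, and the probe set with the highest level gave -0.48, within 1.5-fold. HSP90B1, the HSP90 of the ER known as GRP94, read 10.84 and 11.11, a difference of -0.27 ± 0.07 with all 7 probe sets lower and none by more than 0.39. DNAJB11, the lumenal J-protein ERdj3, read 9.93 and 9.86 on 1 probe set.

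Among the other J-proteins of the ER, DNAJC3, the kinase inhibitor P58IPK, read 5.43 and 6.33 (-0.90 ± 0.16, 3 probe sets). DNAJC1, or ERdj1, read 5.59 and 6.41 (-0.82 ± 0.24, 2 probe sets). DNAJC10, the disulfide reductase ERdj5, read 5.95 and 6.68 (-0.73 ± 0.27, 5 probe sets). Every retained probe set of these 3 genes was lower on the anti-miR array, and the gene values lay within the nonspecific range on both. For DNAJC3 1 probe set (4.58 and 5.31) was retained through the control array alone. The unretained probe set of DNAJC10 differed by 0.03, so this agreement in sign is no separate support. DNAJB9, or ERdj4, which acts in degradation of misfolded ER proteins, stood at the other end with the largest increase of all members. Its 2 retained probe sets read 6.40 and 7.82 in anti-miR cells, against 5.46 and 6.90 in control cells, a difference of 0.93 ± 0.02 or 1.91-fold. One of these probe sets lay above the nonspecific range on both arrays. DNAJB12, a J-protein of the ER membrane, read 7.55 and 6.81 (0.75 ± 0.16), with all 6 probe sets higher. Its relative DNAJB14 read 7.55 and 7.32 (0.23 ± 0.04), and DNAJC14, also of the ER membrane, differed by 0.51 ± 0.37 (2 probe sets). DNAJC16 and DNAJC18 differed by -0.43 ± 0.11 and -0.45 ± 0.65, the second with 1 probe set at -0.91 and 1 at 0.00. HSPA13, a microsomal HSP70 relative, differed by 0.28 ± 0.37, with 2 of 3 probe sets higher.

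**Figure D3:**
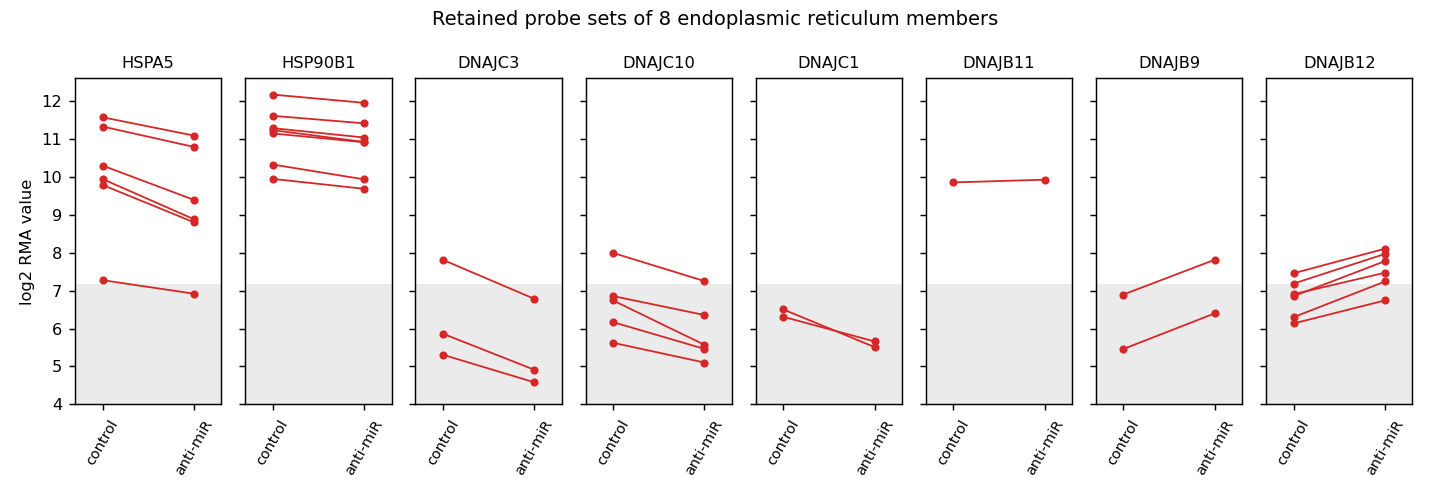
Log2 RMA value of every retained probe set of 8 ER chaperones on the control and the anti-miR array, joined by lines. Grey marks values up to the highest nonspecific control (7.16). All 6 lines of HSPA5 and all 7 of HSP90B1 go down, those of DNAJB9 and DNAJB12 go up, and those of DNAJC3, DNAJC10 and DNAJC1 go down mostly within the grey range.

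HSPA5 and HSP90B1 were also the only members whose promoter holds the ER stress response element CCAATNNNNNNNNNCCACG, searched on both strands. The element was found in 2 of 87 member promoters and in 0.0769% of 35116 promoters of the same length. The stretches are RefSeq sequence of GRCh38.p14, read along the gene, with the element in capitals: chr9:125241383-125241417 on the minus strand for HSPA5, 47 bases before the start site, and chr12:103930208-103930242 on the plus strand for HSP90B1, 175 bases before it. HSP90B1 has a further match on the opposite strand, 70 bases before its start.
HSPA5: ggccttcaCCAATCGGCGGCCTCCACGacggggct
HSP90B1: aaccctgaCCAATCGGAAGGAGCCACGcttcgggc
Both genes had negative differences, and that of HSP90B1 was within 1.5-fold. The ER members DNAJB9, DNAJB11, DNAJC3 and DNAJC10 had no match to these letters.

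In mitochondria the chaperonin genes and the HSP70 gene were within 1.5-fold, and the 3 lower members were J-protein genes. HSPD1, the chaperonin HSP60, read 11.59 and 11.63, and its 6 retained probe sets differed by -0.08 to 0.00. HSPE1, the co-chaperonin HSP10, is transcribed in the opposite direction from a start site 105 bases away from one of HSPD1. It read 9.11 and 8.75 (0.36 ± 0.29), with 3 probe sets that differed by 0.69, 0.12 and 0.29. HSPA9, the mitochondrial HSP70 mortalin, read 10.02 and 9.84, with all 5 probe sets higher by 0.16 to 0.22. The gene values of all 3 were within 1.5-fold, and 1 probe set of HSPE1, at 0.69, was past it.

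The J-protein genes DNAJC15, DNAJC11 and DNAJA3 were lower. DNAJC15, an inner membrane J-protein, read 5.17 and 10.10 on its 2 probe sets in anti-miR cells, against 6.36 and 10.43 in control cells, differences of -1.20 and -0.33. Its mean of -0.77 ± 0.61 therefore rested on a dim probe set. DNAJC11, of the inner membrane organising complex, read 5.64 and 6.38 (-0.74 ± 0.42, 2 probe sets). DNAJA3, known as TID1, read 6.75 and 7.36 (-0.61 ± 0.13), with all 3 probe sets lower. DNAJC19, of the import motor, and DNAJC30, of the inner membrane, differed by 0.13 ± 0.37 and 0.26 ± 0.18.

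At other sites, DNAJC13, the endosomal J-protein RME-8, read 5.43 and 6.53 on 1 probe set, a difference of -1.10. DNAJC24, which acts in diphthamide synthesis, read 6.90 and 6.16 on 1 retained probe set, a difference of 0.74, and its 2 dimmer probe sets brought it to 0.34 without a filter. Both lay within the nonspecific range on both arrays. DNAJC25 differed by 0.55 ± 0.14. DNAJC5, the cysteine string protein of secretory vesicles, differed by -0.31 ± 0.40, with 2 probe sets at -0.75 and -0.54 and 2 at -0.07 and 0.11. The remaining 6 of these members differed by -0.26 to 0.30.

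Level limited many of these calls. Of the 11 lower members 9 had a gene value within the nonspecific range on at least 1 array, as had 4 of the 7 higher ones. Among the 29 members with a mean level above that range, 4 were higher (DNAJB1, DNAJB12, HSPA1B and DNAJC9) and 3 lower (HSPA5, DNAJC15 and DNAJA3), with a median of 0.21. Of all 3708 such genes 9.76% were higher and 12.4% lower, with a median of 0.13. For the 18 cytosolic members among them the counts were 3 and 0 and the median 0.28.

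The genomic span of the gene, from its first to its last base in the RefSeq table, moved with the difference. Over all genes the median span was 14.3 kb for those higher and 107 kb for those lower. Over the members it was 15.0 kb for the 7 higher, 78.2 kb for the 11 lower and 18.1 kb for the 44 others. Spearman's rho of span and difference was -0.49 over 11263 genes and -0.35 over the 62 members, as a description of genes that share the same arrays.

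Of the 9 members with spans from 66.2 kb, the 75th percentile of all genes, none was higher and 7 were lower, with a median of -0.77. Of all genes this long 1.42% were higher and 40.1% lower, with a median of -0.39. The 7 were DNAJC1, DNAJC3, DNAJC6, DNAJC10, DNAJC11, DNAJC13 and DNAJC15. The others were DNAJB6 (80.4 kb), at -0.52, and HSPA12A, a distant HSP70 relative with a span of 180 kb, at 0.37. Of the other 53 members 7 were higher and 4 lower, with a median of 0.20, beside 10.5% and 5.58% of all such genes and the same median. Those 4 were HSPA5 (6.49 kb), DNAJC21 (29.4 kb), DNAJA3 (30.9 kb) and HSPA4L (58.9 kb).

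Median spans were 18.3 kb for the measured members of the cytosol and nucleus, 22.1 kb for the ER, 17.7 kb for mitochondria and 25.7 kb for other sites. Of the ER members the 3 longest were all lower, and the other 10 had 2 higher, 1 lower and a median of 0.15. The median span was 20.7 kb for the measured DNAJB genes and 32.8 kb for the DNAJC genes. The 7 lower members with spans from 66.2 kb were all DNAJC genes, and DNAJB6 was the only measured DNAJB gene that long. The part of gene span in the differences between compartments and between classes was not tested.

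**Figure D4:**
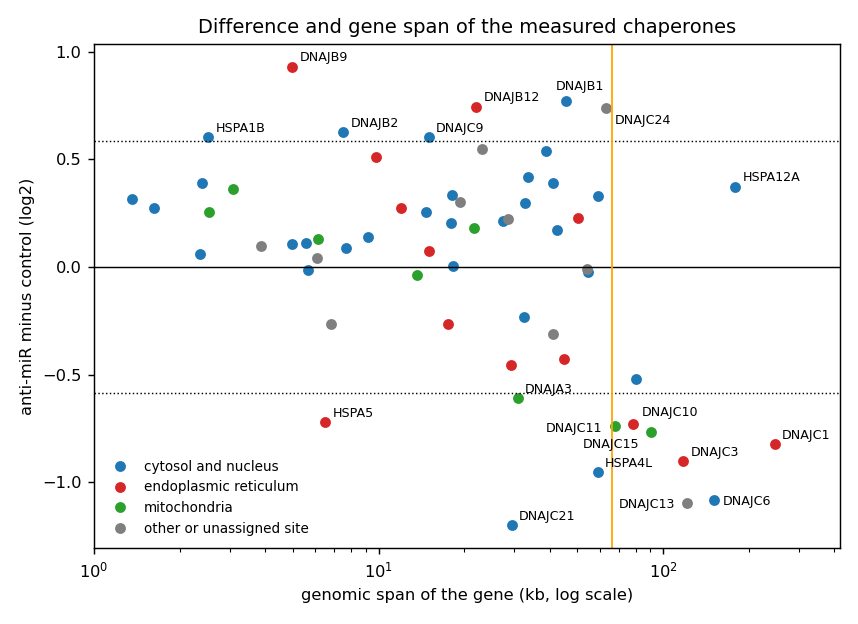
Difference between the arrays (log2) against the genomic span of the gene (kb, log scale) for the 62 measured chaperones, coloured by compartment. Dotted lines mark 1.5-fold and the orange line the 75th percentile of the span over all genes (66.2 kb). Right of it, 7 of 9 members lie below the lower dotted line, and HSPA5 and DNAJC21 lie below it at shorter spans.

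Promoters were searched because heat shock elements mark targets of HSF1. RefSeq gave 87 promoters for 66 of the 73 members, each 300 bases long (250 before and 50 after the start site). At least 1 pair of units, GAANNTTC or TTCNNGAA, which read the same on both strands, was found in 26.4% of member promoters and in 13.5% of all 35116. In the cytosolic group 20 of 52 promoters had a pair, in the mitochondrial group 3 of 11 and in the ER group 0 of 13. The run of 3 units, GAANNTTCNNGAA on either strand, which hold the pairs within them, were found in 7 member promoters (8.05%) and in 0.490% of all. The 7 genes that carry the 3 units differed by -0.52 (DNAJB6) to 0.33 (HSP90AA1). The longer element is shown for 2 of them, HSP90AA1 (chr14:102087112-102087140, minus strand) and HSPD1 (chr2:197500060-197500088, minus strand).
HSP90AA1: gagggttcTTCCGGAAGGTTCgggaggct
HSPD1: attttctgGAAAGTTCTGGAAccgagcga
The 3 units were in none of the 8 promoters of higher members and in none of the 13 promoters of lower members. A pair was in 3 of these 8 and in 3 of these 13. Some members have several promoters. Counted by gene, 2 of 6 higher members and 3 of 10 lower members held a pair. A match in these windows does not show that a factor binds there.

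The partners of the chaperones were read from a list of 55 genes, of which 50 were measured. Of these 9 were higher (18%) and 2 lower (4%), with a median of 0.17, beside the 8.23% and 14.2% of all genes. After centring on the median of all genes 4 were higher (BAG1, BAG2, CDC37L1 and GRPEL2) and 3 lower, so HSF1, PPID, HSCB, GRPEL1 and CLPX no longer passed 1.5-fold. Level limited these calls too. On the control array HSF1, BAG1, GRPEL2 and HSCB lay within the nonspecific range (6.52, 6.51, 6.69 and 6.54). CDC37L1, CLPX and FKBP5 lay within it on both arrays. The gene values of BAG2, PPID, GRPEL1 and VBP1 lay above it on both. HSF1, the main heat shock factor, read 7.18 and 6.52 on 1 probe set, a difference of 0.66. Of 11 measured exchange factors and partners of HSP70, 4 were higher (36.4%) and 0 lower, with a median of 0.25. BAG2 read 8.69 and 7.85 (0.84 ± 0.05, 2 probe sets), and BAG1 differed by 0.77 ± 0.04 (4 probe sets). GRPEL1 and GRPEL2, which serve HSPA9 in mitochondria, differed by 0.62 ± 0.04 and 0.77 ± 0.01 (2 probe sets each). The 2 genes below 0 were ST13 (-0.40) and SIL1 (-0.28), on 1 probe set each, and BAG4 and BAG5 differed by 0.06 and 0.04. BAG3, also a known HSF1 target, differed by 0.27, and HYOU1, an exchange factor of BiP, by 0.13 ± 0.17.

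Of 14 measured HSP90 co-chaperones, CDC37L1 (0.73 ± 0.05) and PPID (0.63) were higher, STIP1, which joins HSP70 to HSP90, was just within 1.5-fold (0.57 ± 0.08), and FKBP5 was lower (-1.02 ± 0.28) with a span of 155 kb. TRAP1, the mitochondrial HSP90, differed by -0.18. HSCB, a mitochondrial J-protein for iron-sulfur clusters, and CLPX, a mitochondrial unfoldase, were higher by 0.65 and 0.71 ± 0.10. SEC63, the J-protein of the ER translocon, differed by -0.47 ± 0.07. None of the 8 TRiC subunits, which form the cytosolic chaperonin, passed 1.5-fold (median 0.15), and of the 6 prefoldin subunits VBP1 was lower (-0.95 ± 0.04).

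**Figure D5:**
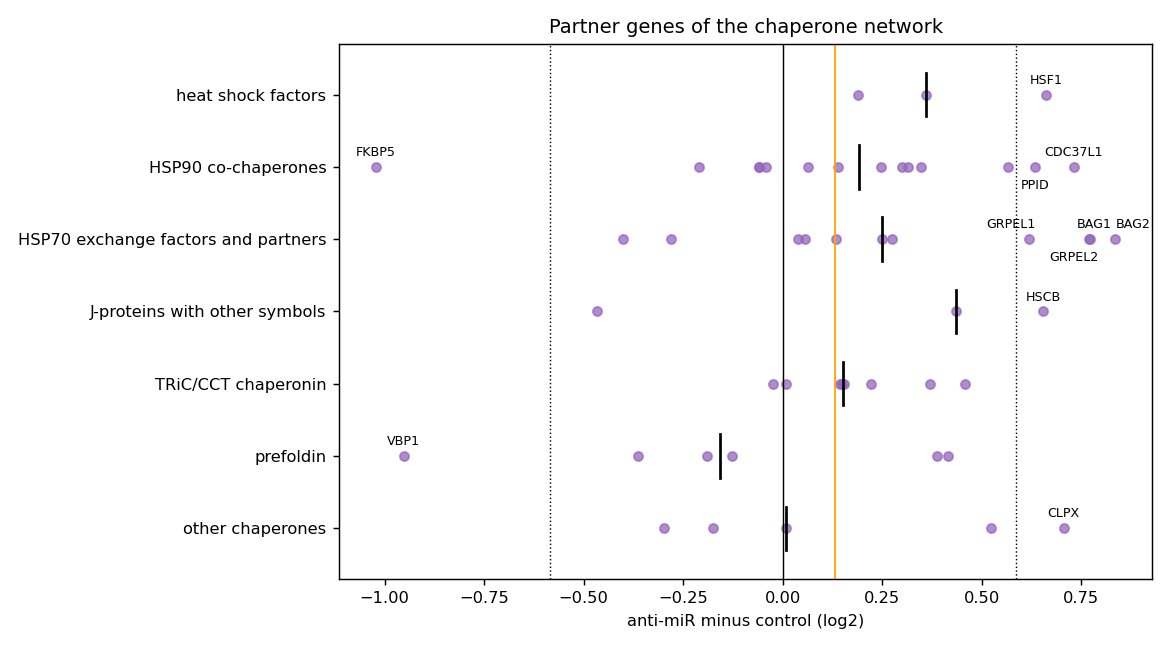
Difference between the arrays (log2) of the 50 measured partner genes, one row per list. Points are genes, black bars list medians, dotted lines 1.5-fold and the orange line the median of all genes (0.13). The 11 genes past 1.5-fold are named: 9 lie to the right and FKBP5 and VBP1 to the left.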

How the data were processed

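The authors deposited log2 values per probe set, which the submitters' processing notes credit to RMA, a method that subtracts background, aligns the arrays' distributions and summarises probes. For its version nothing was given in the sources used here. In all there were 49386 probe sets, including 93 array controls. The platform annotation gave 1 symbol to 45259, several to 1327 and none to 2800. Of 45253 single-symbol probe sets that are not controls 45172 took their symbol by Entrez ID from the RefSeq table (GRCh38.p14). That table also gave gene spans and marked pseudogenes. The files name no build, and printed coordinates are RefSeq's.

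Probe sets below the median of both arrays were left out, and the remaining ones were averaged per gene. The groups have 1 array each, so counts past 1.5-fold and medians stand beside those of all genes, and no test was run. The number of arrays limits the precision. Compartments were assigned by hand from general knowledge.

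The members and lists were chosen with earlier results of these data known. The named genes are all members past 1.5-fold, main members of each family, the highest member of each compartment, listed partners past 1.5-fold and HSF1, HSF2, TRAP1, HYOU1 and BAG3. Others were added after their values were seen. HSF2, AHSA1 and TTC4 are not analysed here, and some listed genes are not reported.

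As alternatives the highest or the median probe set served as gene value, the filter was dropped or set to the 75th percentile, and values were recomputed with centring on the median or a lowess trend (fraction 0.3), plain _at probe sets or a 2-fold threshold. Probe sets with several symbols (9 naming a member, left out otherwise) and a restriction by mean level were added after seeing the data. The script for gene values was tested on simulated data. The tools were scipy 1.17.1, matplotlib 3.10.9, statsmodels 0.14.6, pandas 2.3.3 and numpy 2.4.6 under Python 3.11.15.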

Additional observations from a re-analysis of the deposited data

Results flagged for a closer look

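A probe set that the annotation gives to both HSPA1A and HSPA1B, and that is in no gene value here, was higher on the anti-miR array than on the control array by 0.62 on the log2 scale (10.84 and 10.22). A second such probe set read 11.16 and 10.61, a difference of 0.55. They drew attention because they lie outside the gene values and one of them passed 1.5-fold in the direction of both genes. No replicate exists to test it.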

How the results depend on the processing

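The limits are 1 array per group, no detection call, dim probe sets and probe sets that copies or pseudogenes can share. No paired analysis was possible because there is 1 array on each side, and neither could be left out. The main counts were 7 higher and 11 lower. Without a filter 4 members were higher and the ER median was -0.15. With the 75th percentile filter 9 of 43 members were higher and 6 lower, beside 12.2% and 18.8% of all genes. The medians were then 0.21 for all members, 0.30 for the cytosol, 0.072 for the ER and 0.55 for other sites. With the highest probe set 9 were higher and 9 lower, beside 9.56% and 14.5% of all genes. Centred on the median of all genes 4 were higher, with medians of 0.0030 (all), 0.084 (cytosol), -0.40 (ER), -0.085 (mitochondria) and -0.059 (other sites). Centred on a lowess trend 4 were higher, with medians of 0.0060, 0.11, -0.37, -0.065 and -0.037 in the same order. On plain _at probe sets, which measure 17 members, 1 was higher and 4 lower, with medians of 0.015, 0.10, -0.60, -0.53 and -0.16. The 1 higher was HSPA14 (0.69 on 1 probe set), which is not among the 7 of the main counts. None of those 7 had a retained plain _at probe set, so this setting could check none of them. At 2-fold 0 were higher and 3 lower. With a mean level above the nonspecific range 4 were higher and 3 lower, with medians of 0.21 (all), 0.28 (cytosol) and 0.072 (ER). With probe sets of several symbols 6 were higher and 11 lower. Of 340 values of named genes under these settings 303 moved by less than the SD over the gene's probe sets. Of the others 37 moved by more, and 0 past 1.5-fold changed sign. For genes on 1 probe set the pooled SD of 0.29 was used. Many of the 303 could not move. The restriction by mean level changes no gene value, and probe sets of several symbols change only the genes they name. The 303 are therefore no measure of how stable the values are. DNAJB2, DNAJC24, DNAJC6 and DNAJC9 fell short of 1.5-fold without a filter, as did DNAJB2, DNAJC9, HSPA1B, HSF1, PPID, HSCB and GRPEL1 with either centring and CLPX (0.58) with centring on the median. DNAJA3 and DNAJC15 did so with the 75th percentile filter (-0.54 and -0.33) and with the highest probe set (-0.49 and -0.33), HSPA5 with the highest probe set (-0.48), DNAJC10 on plain _at probe sets (-0.52), and DNAJC9 with probe sets of several symbols (0.56). The causes were not tested.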
